A study of Mus musculus with 24 samples.

Results

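The enzymes with which activated macrophages make effector molecules, 6 genes in all, were followed across the 8 groups of a liver resection study in mice: Acod1, Nos2, Ptgs2, Ptges, Sod2 and Cybb. They make up 6 of the 22206 transcript clusters tested, were found by gene symbol, and each had exactly 1 cluster on the array. Acod1 was chosen by its lower level after resection in splenectomized mice, so its values in the resected groups are given as a description without a test. The others were taken as enzymes of related function. The 24 Clariom S mouse arrays, 3 per group, carried RNA of F4/80+ macrophages sorted from the livers of C57BL/6 male mice.

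The intact group kept liver and spleen. The array labels call it intact, while the methods of the study describe sham-operated controls, and which of these it was is not settled. SE is splenectomy with the liver preserved. LR is 70% liver resection in mice with a spleen, sampled at 24 h, 3 days and 7 days. In LR+SE the spleen had been removed 7 days before the same resection, and the sampling times were those of LR. The labels write PH for the resection. All operated mice received meloxicam, an inhibitor of the cyclooxygenase reaction that Ptgs2 catalyses, before surgery and over the first days after it, which covered the 24 h samples. Collagenase digests of the liver went through a density gradient and then over beads against F4/80, the product of Adgre1, and each preparation pooled several mice. Whether the 3 preparations of a group came from separate mice is not stated, so every p-value measures only the spread between these preparations.

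The levels are log2 signals on the deposited scale, which ran from 1.73 to 19.93. A cluster is called above background here where it exceeds 3.70, the 95th percentile of 1091 odorant receptor clusters, genes that liver macrophages are not known to use. Between 54.8% and 59.6% of clusters lay above that level on each array, and the number of arrays limits the precision. All 12 measured Kupffer cell markers and all 8 general macrophage markers were above background. The range over the arrays was 15.60 to 19.67 for the Kupffer cell lectin Clec4f and 13.46 to 16.78 for Adgre1. All 9 monocyte, 10 hepatocyte and 10 sinusoidal endothelial markers were above background too. Being above background therefore could not test the label of the cells. Transcripts of other liver cells were present as well, among them Alb (albumin, hepatocytes) at 14.74 to 19.91 and Clec4g (sinusoidal endothelial cells) at 12.10 to 16.84. In such bulk preparations, fewer cells of a type and less RNA per cell cannot be told apart. Replicate 2 of LR+SE 3 days stood apart, with a hepatocyte marker mean of 13.79, against 11.44 and 11.52 on the other arrays of its group. That array was also highest of its group in monocyte marker mean (12.82, against 10.50 and 9.08) and neutrophil marker mean (10.98, against 8.84 and 6.22). Its Kupffer cell marker mean was the lowest of the group (15.15, against 16.84 and 16.98). On 5 arrays Y-linked transcripts were at background although the mice are described as males: all 3 of intact, replicate 1 of LR+SE 3 days and replicate 2 of LR 7 days. A second fit therefore took this signal as a block in the comparisons with intact. Only LR+SE 3 days and LR 7 days held arrays both with and without the signal. The size of the block was thus set by these groups alone and assumed alike in intact, where no array had the signal. Results that rest on 3 arrays that stand apart were also computed without them. These were replicates 1 and 2 of LR+SE 3 days and replicate 2 of LR 7 days. Replicate 2 of LR+SE 3 days had Y-linked signal and was set apart by its markers.

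Acod1 encodes aconitate decarboxylase, which makes itaconate from an intermediate of the citric acid cycle. Itaconate inhibits succinate dehydrogenase and activates NRF2, and macrophages make it in quantity after stimulation with endotoxin. Nos2, the inducible nitric oxide synthase, makes nitric oxide from arginine. Ptgs2 (cyclooxygenase-2) and Ptges (microsomal prostaglandin E synthase-1) act in sequence to make prostaglandin E2. Cybb is the catalytic subunit gp91phox of the phagocyte NADPH oxidase, which makes superoxide. Sod2 is the manganese superoxide dismutase of mitochondria and removes superoxide there. All are known as targets of inflammatory signalling in macrophages, and the liver is a site where endotoxin from the gut reaches macrophages first.

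The promoters of the 4 members with the largest differences are shown, since these genes were high together in LR 24 h. The windows come from RefSeq (build GRCm38.p6), which held 5 of the 6 members, and cover 250 bases before the start of the transcript and the first 50 bases of it. Capitals mark matches on either strand to short motifs: TATAAA, TTGCGCAA (a palindrome bound by C/EBP factors), CACGTG (E-box), CGTCA (part of the cyclic AMP response element), GGGCGG (GC box), TGANTCA (AP-1) and the kappaB consensus by name. The Acod1 window is chr14:103046762-103047061 (plus strand), that of Ptgs2 chr1:150099781-150100080 (plus strand), that of Ptges chr2:30903248-30903547 (minus strand) and that of Sod2 chr17:13007589-13007888 (plus strand).
Acod1: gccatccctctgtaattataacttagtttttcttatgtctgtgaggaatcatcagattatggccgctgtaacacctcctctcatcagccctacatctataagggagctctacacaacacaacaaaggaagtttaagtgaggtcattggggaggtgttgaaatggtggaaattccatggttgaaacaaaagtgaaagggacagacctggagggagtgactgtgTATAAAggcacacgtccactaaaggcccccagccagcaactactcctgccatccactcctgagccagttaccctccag
Ptgs2: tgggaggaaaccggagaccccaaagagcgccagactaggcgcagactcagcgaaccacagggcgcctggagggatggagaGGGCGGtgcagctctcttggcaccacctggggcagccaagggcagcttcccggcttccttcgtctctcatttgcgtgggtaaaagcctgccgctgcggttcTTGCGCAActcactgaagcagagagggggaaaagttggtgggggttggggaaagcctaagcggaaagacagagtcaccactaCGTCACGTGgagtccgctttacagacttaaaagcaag
Ptges: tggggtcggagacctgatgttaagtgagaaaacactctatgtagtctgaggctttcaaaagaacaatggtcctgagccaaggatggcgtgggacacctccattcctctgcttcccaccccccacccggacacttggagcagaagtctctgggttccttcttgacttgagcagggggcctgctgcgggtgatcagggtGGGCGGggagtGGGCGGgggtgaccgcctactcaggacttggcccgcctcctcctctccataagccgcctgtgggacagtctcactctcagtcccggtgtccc
Sod2: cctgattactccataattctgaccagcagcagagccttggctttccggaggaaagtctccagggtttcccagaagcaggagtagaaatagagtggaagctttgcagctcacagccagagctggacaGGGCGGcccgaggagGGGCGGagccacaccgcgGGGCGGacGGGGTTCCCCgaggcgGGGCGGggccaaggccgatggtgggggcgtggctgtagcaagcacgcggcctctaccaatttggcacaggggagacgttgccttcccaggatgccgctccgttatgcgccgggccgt
Acod1 had a TATAAA 28 bases before the start, which 13.6% of all 32851 windows of this length hold somewhere. Ptgs2 had a TTGCGCAA, held by 0.183% of the windows, 69 bases before the start, and a GGGCGG (35.7% of windows). It also had overlapping matches to CGTCA (20.8%) and CACGTG (7.15%) in the first bases after the annotated start. All distances count from the start annotated in RefSeq, and whether transcripts start there in these cells was not tested. Ptges had a pair of GGGCGG and Sod2 had 4 of them, and Sod2 alone of the 5 had the kappaB consensus (4.51% of windows), 83 bases before its start. Cybb had the only TGANTCA (7.81%). These matches describe the letters of the windows and not sites that were shown to be bound.

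Acod1 stood at 8.57, 10.52 and 9.69 on the 3 intact arrays and at 9.89, 8.31 and 8.40 in SE. In LR it was at 11.60, 14.58 and 12.15 at 24 h, at 10.47, 10.81 and 9.93 at 3 days and at 12.28, 15.81 and 12.76 at 7 days. In LR+SE it was at 6.28, 6.26 and 7.22 at 24 h, at 5.54, 9.41 and 6.92 at 3 days and at 9.42, 7.86 and 11.50 at 7 days. At each of the 3 times all 3 LR arrays lay above all 3 LR+SE arrays, and at 24 h the LR+SE arrays also lay below every intact and SE array.

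**Figure D1:**
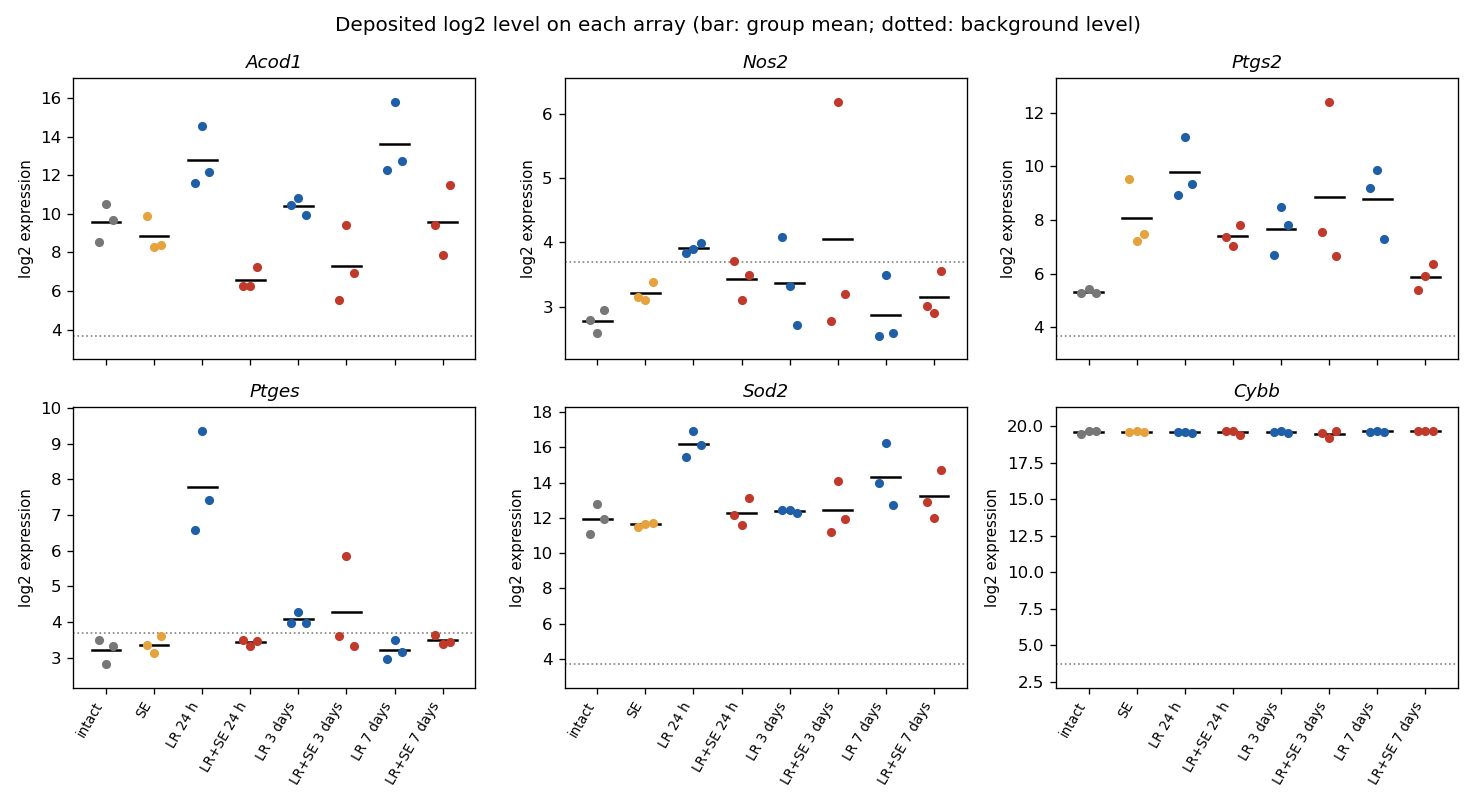
Deposited log2 level (vertical axes, which differ between panels) of the 6 genes on each of the 24 arrays, by group. Points are arrays, bars group means, the dotted line the background level of 3.70. Acod1 is above LR+SE in LR at every time, Ptges leaves the background level by several log2 units only in LR 24 h and on 1 array of LR+SE 3 days, and Cybb stays between 19.23 and 19.71.

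By group mean, Acod1 ran from 6.59 ± 0.55 in LR+SE 24 h (mean ± SD, n = 3) through 7.29 ± 1.96 in LR+SE 3 days, 8.87 ± 0.89 in SE, 9.59 ± 0.98 in intact, 9.59 ± 1.83 in LR+SE 7 days and 10.40 ± 0.45 in LR 3 days to 12.78 ± 1.58 in LR 24 h and 13.62 ± 1.92 in LR 7 days. Of neighbours in this order, LR 3 days and LR 24 h were the only pair whose arrays did not overlap. The difference LR+SE minus LR was -6.19 ± 1.02 at 24 h (± standard error), -3.11 ± 1.02 at 3 days and -4.02 ± 1.02 at 7 days, with a mean over the 3 times of -4.44 ± 0.59. On leaving out 1 array at a time it was -4.17 to -2.24 at 3 days, with -4.17 without replicate 2 of LR+SE 3 days, and it was -2.92 at 7 days without replicate 2 of LR 7 days.

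Set against the groups without resection, Acod1 was higher in LR at 24 h and 7 days and lower in LR+SE at 24 h, without overlap. LR minus intact was 3.18 ± 1.02 at 24 h, 0.81 ± 1.02 at 3 days and 4.02 ± 1.02 at 7 days (2.93 without replicate 2 of LR 7 days), whereas LR+SE minus SE was -2.28 ± 1.02, -1.57 ± 1.02 and 0.73 ± 1.02. The comparisons of LR with intact and of LR+SE with LR share the LR arrays. Splenectomy alone, the one comparison in which Acod1 was tested because its choice did not use it, gave -0.73 ± 1.02 with overlapping arrays (95% interval -2.86 to 1.40, limma adjusted p = 0.828). In that comparison 0 of the 6 genes passed, where 0.554% of all clusters did. At an unadjusted p under 0.05 Ptgs2 alone did so, and the share of all clusters at that level is not given here.

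The prostaglandin E2 enzymes were higher in LR 24 h than in intact, and Ptges was lower again in LR+SE 24 h. Ptges stood at 6.57, 9.37 and 7.41 in LR 24 h, against 3.50, 2.82 and 3.34 in intact, 3.36, 3.15 and 3.60 in SE and 3.50, 3.34 and 3.47 in LR+SE 24 h. All 3 LR 24 h arrays were thus far above background and all 9 others below it. The next highest values were 3.96 to 4.29 in LR 3 days and 5.87 on replicate 2 of LR+SE 3 days. That array stood apart in hepatocyte, monocyte, neutrophil and Kupffer cell markers. Ptges was 4.57 ± 0.55 higher in LR 24 h than in intact (limma adjusted p = 4.02e-05) and lower in LR+SE than in LR at 24 h, with a difference of -4.35 ± 0.55 (adjusted p = 1.06e-04). Of the 5 tested members 3 passed in the first comparison (7.59% of all clusters), Ptgs2, Ptges and Sod2, all higher, and 2 in the second (3.26% of all clusters), Ptges and Sod2, both lower. Since Ptges lay at background in the groups set against LR 24 h, its level there is known only as a bound.

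The response of Ptges to resection differed with the spleen. LR+SE minus SE was 0.07 ± 0.55 at 24 h (adjusted p = 0.983), and the interaction, which is the response after splenectomy minus that with the spleen, was -4.50 ± 0.77 (adjusted p = 0.0102). It was the 1 member of 5 to pass, where 0.684% of all clusters did. With Y-linked signal as a block the interaction was -4.23 with adjusted p = 0.149. Ptges was also lower at 7 days than at 24 h in LR (-4.58 ± 0.55, adjusted p = 4.54e-05), at 2.98, 3.50 and 3.15, and again was the 1 member of 5 called (7.57% of all clusters). In LR+SE the same comparison called 0 of 5 (1.04% of all clusters), with Ptges at 0.06 ± 0.55. Over the mean of the 3 times, Ptges was 1 of 5 called in LR+SE against LR (-1.29 ± 0.31, adjusted p = 0.0425, 1.52% of all clusters), but 14 of the 18 fits that left out 1 array lost the call (adjusted p = 0.0561 to 0.0940).

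Ptgs2, which acts one step before Ptges, stood within a narrow range in intact (5.29, 5.42 and 5.29) and its arrays in every other group but LR+SE 7 days lay wholly above that range. It was at 9.54, 7.21 and 7.47 in SE, at 8.92, 11.11 and 9.34 in LR 24 h, at 6.70, 8.47 and 7.83 in LR 3 days and at 9.20, 9.85 and 7.28 in LR 7 days. In LR+SE it was at 7.37, 7.02 and 7.82 at 24 h, at 7.55, 12.41 and 6.65 at 3 days and at 5.38, 5.93 and 6.37 at 7 days. The highest value of all was that of replicate 2 of LR+SE 3 days.

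Only the difference at 24 h passed for Ptgs2: LR was 4.46 ± 1.02 above intact (adjusted p = 0.00839). The call was lost without replicate 2 of LR 24 h (3.80, adjusted p = 0.0626) and with Y-linked signal as a block (4.27, adjusted p = 0.208). LR was 2.34 ± 1.02 above intact at 3 days (adjusted p = 0.325) and 3.45 ± 1.02 at 7 days (adjusted p = 0.114), and SE was 2.74 ± 1.02 above it (adjusted p = 0.243). At 3 and 7 days 0 of the 5 members passed against intact, where 2.36% and 1.00% of all clusters did. LR+SE minus LR was -2.39 ± 1.02 at 24 h (adjusted p = 0.266), 1.20 ± 1.02 at 3 days and -2.89 ± 1.02 at 7 days (adjusted p = 0.181), without overlap at 24 h and 7 days. The value at 3 days rested on replicate 2 of LR+SE 3 days, and without that array it was -0.57 (adjusted p = 1).

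For Ptgs2 after splenectomy, LR+SE minus SE was -0.68 ± 1.02 at 24 h, 0.79 ± 1.02 at 3 days and -2.18 ± 1.02 at 7 days, and 0 of 5 members passed at any of these times, where 1.33%, 6.92% and 1.52% of all clusters did. The interaction for Ptgs2 was -5.13 ± 1.44 at 24 h (adjusted p = 0.104) and -5.63 ± 1.44 at 7 days (adjusted p = 0.108), neither past the threshold. Without the 3 arrays set apart the interaction at 7 days was -5.09 with adjusted p = 0.00929 and LR against intact at 7 days 2.91 with adjusted p = 0.0266. The interactions at 3 and 7 days called 0 of 5 members, against 0.513% and 0.122% of all clusters.

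**Figure D2:**
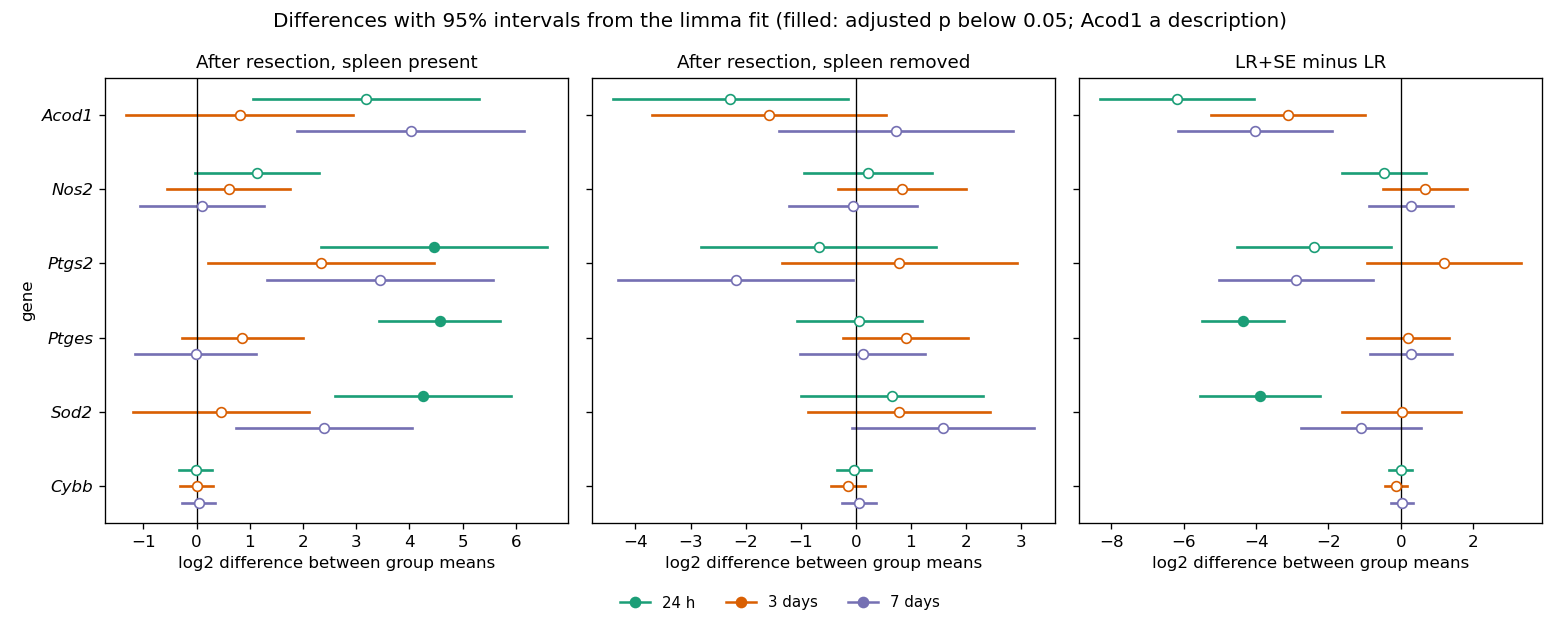
Log2 difference between group means (horizontal axes, which differ between panels) for the 6 genes at 24 h, 3 days and 7 days, with 95% intervals from the fit. Filled points passed an adjusted p of 0.05, and Acod1 was not tested here. Ptgs2, Ptges and Sod2 are filled at 24 h with the spleen present, none after splenectomy, and Ptges and Sod2 are filled at 24 h in LR+SE minus LR.

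Sod2 had a pattern like that of Ptges at 24 h and like that of Acod1 in single arrays. It stood at 15.45, 16.95 and 16.13 in LR 24 h, against 11.07, 12.76 and 11.93 in intact, 11.48, 11.67 and 11.72 in SE and 12.16, 11.57 and 13.11 in LR+SE 24 h. The LR 24 h arrays did not overlap with any of these groups. Sod2 was 4.25 ± 0.79 higher in LR 24 h than in intact (adjusted p = 0.00169) and fell by 3.90 ± 0.79 in LR+SE against LR (adjusted p = 0.00679). Without replicate 2 of LR+SE 24 h the second difference was -3.54, with adjusted p = 0.0511. LR+SE minus SE at 24 h was 0.65 ± 0.79 (adjusted p = 0.828), and the interaction was -3.60 ± 1.12 (adjusted p = 0.146), so a difference between the 2 responses did not pass for Sod2.

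At the later times Sod2 was more variable. It was at 12.42, 12.45 and 12.30 in LR 3 days and at 11.19, 14.10 and 11.96 in LR+SE 3 days, and LR+SE minus LR was 0.03 ± 0.79. At 7 days it was at 13.98, 16.25 and 12.71 in LR and at 12.90, 12.01 and 14.72 in LR+SE, with overlapping arrays and a difference of -1.10 ± 0.79 (adjusted p = 0.625). Between LR+SE and LR, 0 of 5 members passed at 3 days (0.126% of all clusters) and 0 at 7 days (1.64% of all clusters). Replicate 2 of LR 7 days, one of the arrays without Y-linked signal, was the highest of its group for Acod1, Ptgs2, Ptges and Sod2. Without it, the difference of Sod2 between 7 days and 24 h in LR was -2.83 (adjusted p = 0.0247), against -1.86 ± 0.79 with it (adjusted p = 0.183).

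Nos2 stood at or below background on most arrays. It exceeded 3.70 on 6 of the 24 arrays: all 3 of LR 24 h (3.83, 3.90 and 3.99), 1 of LR+SE 24 h (3.71), 1 of LR 3 days (4.09) and replicate 2 of LR+SE 3 days (6.18). In intact it was at 2.79, 2.59 and 2.94. LR 24 h and intact did not overlap, but the difference of 1.13 ± 0.56 did not pass (adjusted p = 0.277), and near background the array gives little information on its size. LR+SE minus LR was -0.47 ± 0.56 at 24 h, 0.68 ± 0.56 at 3 days and 0.28 ± 0.56 at 7 days. Nos2 was not called in any comparison.

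Cybb stood at the opposite end, between 19.23 and 19.71 on all 24 arrays, and was not called in any comparison. Its group means lay between 19.48 and 19.68. Differences there are compressed: the 56 clusters with a mean above 19 had a median SD within groups of 0.183, against 0.59 for those between 18 and 19. Its lowest value, 19.23, came from replicate 2 of LR+SE 3 days. Whether the oxidase subunit changed can therefore not be read from this cluster.

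Over the 24 arrays, the levels of Acod1 and Sod2 had r = 0.78, and r = 0.894 after the mean of each group was taken off both. Ptges and Sod2 had r = 0.713 (0.498 within groups), Nos2 and Ptgs2 0.645 (0.689), Ptgs2 and Ptges 0.627 (0.757), and Acod1 and Ptges 0.427 (0.606). These values are descriptions: arrays of a group share their treatment, and every gene on an array shares its normalization and cell makeup. Replicate 2 of LR 24 h was the highest of its group for Acod1, Ptgs2, Ptges and Sod2, as replicate 2 of LR 7 days was.

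**Figure D3:**
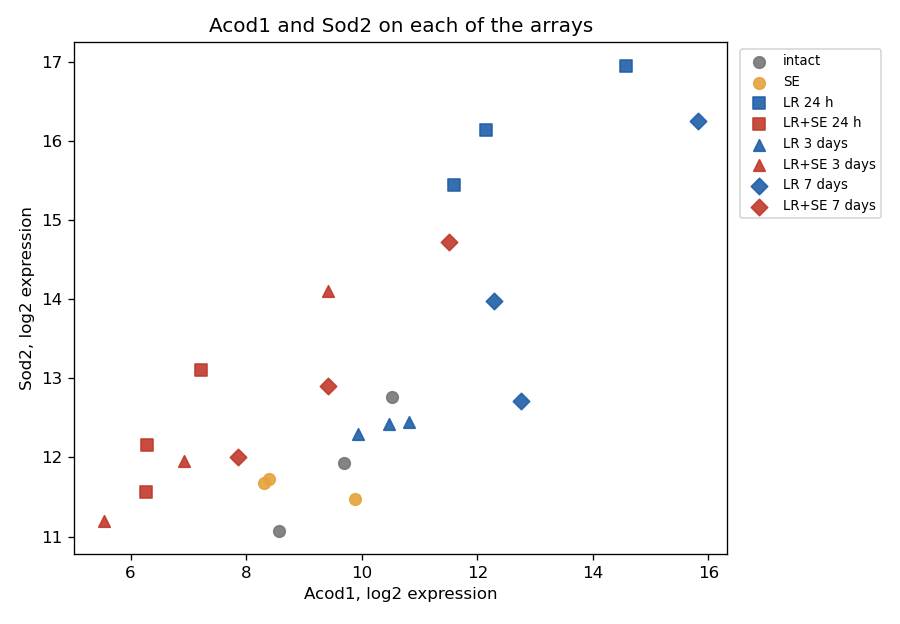
Log2 level of Acod1 (horizontal axis) and of Sod2 (vertical axis) on each of the 24 arrays. Colour gives the operation and shape the time. The arrays of LR 24 h lie at the top right with replicate 2 of LR 7 days, and those of LR+SE 24 h at the left, at Sod2 levels of 11.57 to 13.11 near those of intact.

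The genes whose level over the 24 arrays was most like that of Acod1 were Cnksr3 (r = 0.819), Lpar1 (0.818), Lacc1 (0.809), Cep85l (0.808), Irak3 (0.804), Jak2 (0.788), Ctla2b (0.787) and Slc2a6 (0.779). Lpar1 is a receptor for lysophosphatidic acid, Lacc1 an enzyme of macrophage metabolism, Irak3 a kinase-like inhibitor of Toll-like receptor signalling, Jak2 a cytokine receptor kinase and Slc2a6 a sugar transporter of lysosomes. Irak3 stood at 14.37, 15.58 and 14.86 in LR 24 h, against 10.77, 10.64 and 11.36 in intact and 10.02, 10.11 and 10.41 in LR+SE 24 h. At 7 days it did not follow the group difference of Acod1, with 11.54, 16.89 and 12.39 in LR and 13.87, 11.48 and 15.91 in LR+SE, and the highest array of each of these groups was also its highest for Acod1. For Ptges the likeness was closer, with Akap12 (0.95), a scaffold protein, S1pr1 (0.934), a receptor for sphingosine 1-phosphate that endothelial cells use, and Inhbb (0.931), a subunit of activin. Akap12 stood at 10.00, 14.00 and 9.47 in LR 24 h and between 4.27 and 6.25 on the other 21 arrays. Sod2 was most like Samsn1 (0.908), Ikbke (0.874) and Gas7 (0.869), and Ptgs2 most like Zc3h12c (0.856), Clec4e (0.837) and Met (0.832). For Nos2 they were Socs2 (0.87), Mst1 (0.824) and Cdh1 (0.817), and for Cybb Gcfc2 (0.723), Smad5 (0.717) and Fam126a (0.717), in both cases near an end of the scale.

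The genes around each member were read from 8 lists of pathway genes, with the members left out of the counts. Of 11 other genes of arginine and nitric oxide metabolism 4 were higher in LR 24 h than in intact: Arg1 (6.71 ± 1.29), the arginase that competes with nitric oxide synthase for arginine, the cationic amino acid carriers Slc7a2 (5.60 ± 0.82) and Slc7a1 (1.96 ± 0.49), and Nos3 (1.70 ± 0.26), the synthase of endothelial cells. The median over the 11 was 0.31, beside 0.01 over all clusters, of which 7.59% were called. Slc7a2 stood at 8.66, 10.85 and 9.02 in LR 24 h, against 3.88, 3.95 and 3.88 in intact and 5.61, 4.11 and 4.94 in LR+SE 24 h. It and Nos3 were the 2 called in LR+SE against LR at 24 h, at -4.62 ± 0.82 and -1.37 ± 0.26, where 3.26% of all clusters were. Nos3 stood at 5.23, 5.56 and 5.35 in LR 24 h. It lay near the background level of 3.70 in intact (3.61, 3.24 and 4.20) and in LR+SE 24 h (4.22, 4.03 and 3.77). The size of its differences is therefore uncertain. Arg1 stood at 10.63, 7.20 and 9.69 in LR+SE 24 h, below the 11.50, 11.45 and 12.90 of LR without passing.

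Several other enzymes of prostanoid synthesis were lower in LR 24 h, where Ptges was higher. Of 18 other prostanoid and leukotriene genes, 4 were lower in LR 24 h than in intact and 1 was higher. Hpgds, which makes prostaglandin D2, fell by 3.95 ± 0.58 (adjusted p = 2.09e-04), Tbxas1, which makes thromboxane, by 2.46 ± 0.43, Pla2g4a, the phospholipase that frees arachidonic acid, by 1.95 ± 0.56 and Ptgis, the prostacyclin synthase, by 1.13 ± 0.24, and Alox15 was 3.82 ± 0.63 higher. Hpgds stood at 9.80, 9.03 and 9.90 in LR 24 h, against 13.11, 13.97 and 13.50 in intact and 12.54, 13.13 and 12.67 in LR+SE 24 h, with no overlap between LR 24 h and either. In LR+SE against LR at 24 h, Hpgds (3.20 ± 0.58), Tbxas1 (2.68 ± 0.43) and Lta4h (1.74 ± 0.35), which makes leukotriene B4, were higher and Alox15 lower (-3.29 ± 0.63). The median over the 18 was -0.18 in LR against intact and 0.41 in LR+SE against LR, beside 0.01 and -0.03 over all clusters. Of all clusters 7.59% and 3.26% were called. For Lta4h the interaction at 24 h passed as well (2.19 ± 0.50, adjusted p = 0.0455). Ptgis was also called lower than in intact in LR 3 days and LR 7 days, where Ptges was not called.

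**Figure D4:**
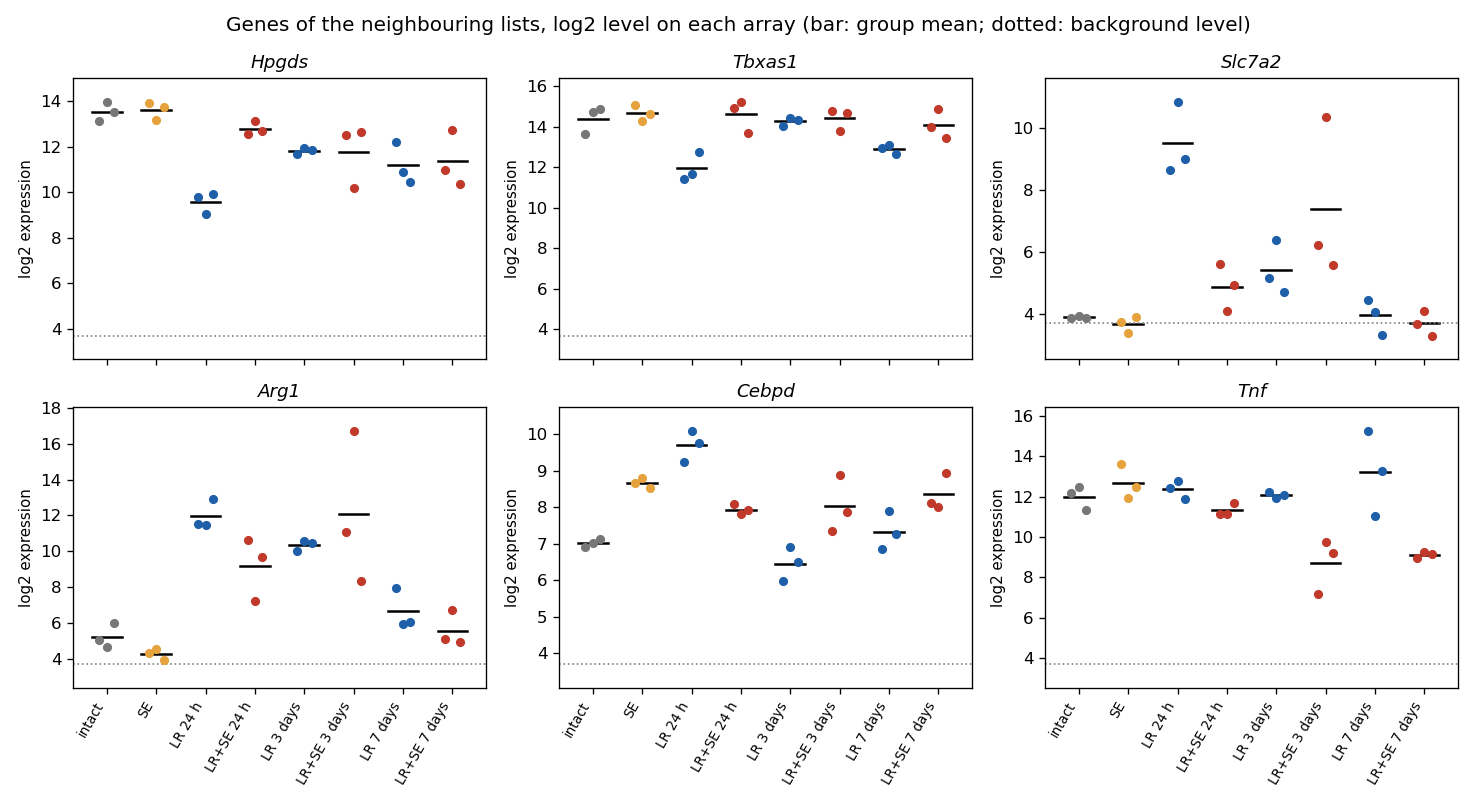
Log2 level (vertical axes, which differ between panels) on each of the 24 arrays for 6 genes of the lists around the members: Hpgds, Tbxas1, Slc7a2, Arg1, Cebpd and Tnf. Points are arrays, bars group means and the dotted line the background level. Hpgds and Tbxas1 are lowest in LR 24 h, where Slc7a2 and Cebpd are highest, and Tnf is at 7.19 to 9.77 in LR+SE at 3 and 7 days.

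Among other genes of superoxide and peroxide handling, 2 of 13 were called in LR 24 h against intact and 1 of 13 in LR+SE against LR at 24 h, where 7.59% and 3.26% of all clusters were, with medians of -0.09 and -0.11. Sod3, the extracellular dismutase, was higher (1.25 ± 0.38) and Cat, catalase, lower in LR 24 h than in intact, with Cat at 12.41 ± 0.50 against 15.44 ± 0.47 (SD, n = 3). Gpx3 was higher in LR+SE than in LR at 24 h (2.16 ± 0.52). Sod1, the cytosolic dismutase, was not called in either. Of 10 other genes of the NADPH oxidase, Ncf4 was higher in LR 24 h (1.30 ± 0.34), and 0 were called in LR+SE against LR at 24 h, with medians of 0.23 and -0.02. Of 10 NRF2 targets, Gsr, glutathione reductase (3.77 ± 0.41), and Slc7a11, the cystine carrier (3.39 ± 0.95), were higher and Osgin1 lower (-3.18 ± 0.44) in LR 24 h than in intact, and 0 were called in LR+SE against LR at 24 h, with medians of 0.15 and 0.37. Of 12 other genes of itaconate and the citric acid cycle, 0 were called in LR 24 h against intact, and Idh1 was higher in LR+SE than in LR at 24 h (2.22 ± 0.50), with medians of 0.05 and 0.09. In lists of this size such shares rest on 0 to 3 genes.

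Acod1, Nos2, Ptgs2 and Sod2 are known as genes that endotoxin induces in macrophages, so other such genes were counted. Of 15 cytokines and feedback genes, 2 were higher in LR 24 h than in intact, Socs3 (3.34 ± 0.88) and Icam1 (2.04 ± 0.57), with a median of -0.08 over the list. Icam1 alone was lower in LR+SE than in LR at 24 h (-2.41 ± 0.57). Of all clusters 7.59% and 3.26% were called in these comparisons. At 7 days 5 of the 15 were lower in LR+SE than in LR, where 1.64% of all clusters were called in either direction. The list median was -1.79 beside -0.02 over all clusters. The 5 were Tnf (-4.08 ± 0.73), Ccl4 (-3.72 ± 0.89), Cxcl2 (-2.40 ± 0.41), Il10 (-2.35 ± 0.58) and Nfkbiz (-1.62 ± 0.41). The count rose without the 3 arrays set apart above, and the share of all clusters called in that fit is not given here. Tnf stood at 15.28, 11.06 and 13.28 in LR 7 days and at 8.98, 9.26 and 9.15 in LR+SE 7 days. Its highest array in LR 7 days was replicate 1, not replicate 2, which was highest for Acod1. At 3 days 0 of the 15 passed in LR+SE against LR (0.126% of all clusters), with a median of -0.90. In LR+SE against SE at 3 days 8 of 15 were lower (7 to 9 of 15 on leaving out 1 array). There 6.92% of all clusters were called in either direction, and the median was -2.02 beside -0.04 over all clusters. In that comparison 8 of 10 hepatocyte markers (median 4.55) and 5 of 9 monocyte markers (median 3.43) were higher, and their part in the lower cytokine levels was not tested.

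Of 13 regulators, 4 were called in LR 24 h against intact, 2 higher and 2 lower, where 7.59% of all clusters were called. In LR+SE against LR at 24 h 2 were called, Cebpd lower and Irf8 higher, where 3.26% of all clusters were. The medians over the list were 0.04 and -0.07. Cebpd, a C/EBP factor, was 2.68 ± 0.35 higher in LR 24 h than in intact (adjusted p = 7.46e-05), lower in LR+SE than in LR at 24 h (-1.77 ± 0.35), and its interaction there was -3.40 ± 0.49 (adjusted p = 0.00598). It stood at 6.90, 7.02 and 7.14 in intact, at 9.25, 10.10 and 9.76 in LR 24 h, at 8.65, 8.78 and 8.53 in SE and at 8.08, 7.80 and 7.91 in LR+SE 24 h. Unlike the members it was also called in SE against intact (1.63 ± 0.35, adjusted p = 0.0345). Hif1a was 3.01 ± 0.61 higher in LR 24 h than in intact, whereas Irf1 (-1.88 ± 0.38) and Irf8 (-1.47 ± 0.25), factors of the interferon response, were lower. Irf8 was higher in LR+SE than in LR at 24 h (1.00 ± 0.25, adjusted p = 0.0282), at 9.15, 9.09 and 8.77 against 7.62, 7.65 and 8.74. For Irf1 the same difference was 0.04 ± 0.38 (adjusted p = 0.981), with overlapping arrays.

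Other cell types moved with these comparisons. Beside the counts below, 7.59% of all clusters were called in LR 24 h against intact and 3.26% in LR+SE against LR at 24 h. In LR+SE against LR 0.126% were called at 3 days and 1.64% at 7 days. The mean of 14 neutrophil markers was at most 6.19 in intact, 9.52 to 10.49 in LR 24 h and 12.07 to 12.60 in LR+SE 24 h, and 8 of the 14 were higher in LR 24 h than in intact and 4 higher in LR+SE than in LR. That of 9 monocyte markers was 6.27 to 6.55 in intact, 9.84 to 10.48 in LR 24 h and 9.96 to 10.81 in LR+SE 24 h. Neutrophil markers were thus highest where Acod1 was lowest at 24 h. Sinusoidal endothelial markers followed the members at 24 h and not at 7 days. The mean of the 10 markers was 12.03 to 13.71 in intact, 13.81 to 14.23 in LR 24 h and 12.50 to 12.96 in LR+SE 24 h, with 2 of 10 lower in LR+SE, but it was 10.72 to 11.12 in LR 7 days and 13.64 to 14.64 in LR+SE 7 days, with 8 of 10 higher. At 7 days Acod1 was thus higher in the group with the lower endothelial signal. The mean of 12 Kupffer cell markers was 15.19 to 16.89 in LR 24 h, lowest on replicate 2, against 16.30 to 17.07 in intact and 16.59 to 16.97 in LR+SE 24 h, with 4 of 12 lower and 1 higher in LR 24 h than in intact and 0 called in LR+SE against LR. The mean of 8 general macrophage markers was 15.22 to 16.39 in LR 24 h. It was 16.69 to 17.28 in intact and 16.65 to 17.02 in LR+SE 24 h, without overlap with LR 24 h. At 7 days it was 16.13 to 16.94 in LR and 17.05 to 17.40 in LR+SE, and at 3 days these groups overlapped. Of the 8, 2 were lower in LR 24 h than in intact. In LR+SE against LR 1 was higher at 24 h and 2 at 7 days. This signal was thus lower in LR at 24 h and 7 days, where Acod1 was higher. Of the 14 neutrophil markers 2 were below background on all 3 intact arrays and 0 on all arrays of LR 24 h or of LR+SE 24 h, and 0 of the monocyte, endothelial, Kupffer cell and hepatocyte markers were so in any group. At 3 days the mean of 10 hepatocyte markers was 9.29 to 10.49 in LR and 11.44 to 13.79 in LR+SE, with 0 of 10 called. In SE it was 6.85 to 8.61. The part of macrophages, hepatocytes, neutrophils, monocytes and endothelial cells in these differences was not tested.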

How the data were processed

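The deposited table held 1 log2 signal per transcript cluster and array. Per the submitters' processing notes, the authors used the Transcriptome Analysis Console and RMA (robust multi-array averaging), and neither versions nor the variant of RMA are given in the sources used here. The log2 values were used as deposited. The table had 28846 entries. After removal of 6640 control probesets, 22206 clusters were tested, of which 19572 had 1 gene symbol and the others none. Linear models with 1 mean for each of the 8 groups were fitted to all 24 arrays with limma 3.58.1 in R 4.3.3 (16 residual and 4.227 prior degrees of freedom), for 16 comparisons. A gene is called where its p, adjusted by Benjamini-Hochberg over all clusters of a comparison, is under 0.05. With 3 arrays against 3 an exact test could not go below p = 0.1, and the calls depend on the spread pooled over groups. The fit was tested on simulated data. The ± sign gives the standard error of a difference and the SD of a group mean.

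The members, the lists of pathway and marker genes and the tests were chosen with earlier results of these data known. Named genes were the 6 members, up to 4 called genes of each list and comparison with the largest differences, and the genes with the highest r to a member over the 24 arrays (8 for Acod1, 3 for each other). Genes singled out beyond this rule, Sod1 and the genes drawn in the plot of pathway genes, were chosen after their values were seen. Alternatives were another normalization, centring, a filter on low values, another prior, only the groups compared and a replicate block. Others were Y-linked signal as a block, each array left out and a t-test, which the methods name for pairwise comparisons. Leaving out the 3 arrays that stand apart and the background from control probesets were added after the data were seen. Promoters were searched and figures drawn with Python 3.11.15 and matplotlib 3.10.9. No raw scans or scan dates were used here, so scan batches were not examined.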

Additional observations from a re-analysis of the deposited data

Results flagged for a closer look

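For Ptges the response to resection at 24 h differed between mice with and without a spleen: the response was lower by 4.50 on the log2 scale after splenectomy, written as -4.50 ± 0.77, and the test of that difference passed (limma adjusted p = 0.0102). With Y-linked signal as a block the call was lost (-4.23, adjusted p = 0.149). Ptges is the last enzyme of prostaglandin E2 synthesis, and its level in LR+SE 24 h, SE and intact was at background.

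For Acod1 the corresponding difference at 24 h was -5.46 and was not tested, since the gene was chosen on these groups. All 3 LR 24 h arrays lay above all 3 intact arrays, while all 3 LR+SE 24 h arrays lay below all 3 SE arrays.

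For Ptgs2 at 7 days the difference between the responses was -5.63. All 3 LR 7 days arrays lay above all 3 intact arrays and all 3 LR+SE 7 days arrays below all 3 SE arrays, and the test of the difference did not pass (adjusted p = 0.108).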

How the results depend on the processing

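No difference of a member that was called changed its sign under any alternative. The counts of called members changed as follows. In LR against intact at 24 h, 3 became 2 with Y-linked signal as a block and without replicate 2 of LR 24 h, both times by the loss of Ptgs2, and 4 with only the groups compared, by the gain of Nos2. In LR+SE against LR over the mean of 3 times, 1 became 2 with quantile normalization, with only clusters above background and without the 3 arrays that stand apart, 0 with arrays centred on their median or with only the groups compared, and 0 to 3 on leaving out 1 array. With only the groups compared, 1 member was called in LR against intact at 3 days and 3 in the interaction at 24 h, and with Y-linked signal as a block the latter was 0. Leaving out 1 array gave 1 to 2 in LR+SE against LR at 24 h and 1 to 2 in 7 days against 24 h in LR. Without the 3 arrays that stand apart, which leaves 1 array in LR+SE 3 days, assumed to vary like the other groups, 1 was called in LR against intact at 7 days, 1 in the interaction at 7 days and 3 in 7 days against 24 h in LR. The methods name a t-test for pairwise comparisons but do not state how the array values were tested. Such a t-test uses only the 6 arrays compared. At an unadjusted p under 0.05 it called 2 in SE against intact and 4, 2 and 1 in LR against intact at 24 h, 3 and 7 days. It called 3 and 1 in LR+SE against LR at 24 h and 7 days, 2 in 7 days against 24 h in LR and 1 in LR+SE. After Benjamini-Hochberg it called 0 in LR against intact at 24 h, in LR+SE against LR at 24 h and in 7 days against 24 h in LR. The share of all clusters under the unadjusted t-test is not given here, so its counts have no general rate beside them. The causes of these changes were not tested.

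The same replicate numbers did not pair the arrays: over 84 pairs with the same number, deviations from the group means had r from -0.548 to 0.448, and 28 pairs exceeded 0.1. With the replicate block, 3 members were called in LR against intact at 24 h, 2 in LR+SE against LR at 24 h and 1 in the interaction at 24 h, as without it. The background level was 4.58 when taken from the control probesets of the array, above the Nos2 level on all but 1 array. Differences of members at or below background, Nos2 on 18 of the 24 arrays and Ptges in most groups, and of Cybb near the top of the scale are the least certain.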
